A study of Rattus norvegicus with 18 samples.

Results

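The comparison described here sets the colon of rats 14 days after a trinitrobenzene sulfonic acid (TNBS) enema against the colon of rats 5 days after the same enema. It uses 6 of the 18 arrays of the series, 3 labelled TNBS day 5 and 3 labelled TNBS day 14, and no other selection was made. All rats of both groups had received 1 enema of 10 mg TNBS in 50% ethanol on day 0, so each group carries the effects of the hapten and of the solvent together. Strain, sex and age are not stated in the sample labels or the design text. The question is how established disease differs from recovery, as a direct contrast of treated rats that takes no control array into the fit. Whole-thickness colon was homogenised, and 1 Affymetrix Rat Genome 230 2.0 array was run per rat, so epithelium, muscle, nerves, vessels and leukocytes were read together.

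TNBS is a hapten: it binds to proteins of the colon wall, which ethanol makes accessible by breaking the mucosal barrier, and the modified proteins are attacked by the immune system. The early lesion is a transmural inflammation with ulcers, rich in neutrophils and macrophages and in the interleukin-1, tumour necrosis factor and chemokine signals they exchange. In rats a single dose is followed by healing, in which leukocytes leave, matrix is remodelled and epithelium again covers the ulcer with the enterocytes, goblet cells and endocrine cells that absorb salt, water and butyrate, secrete mucus and sense the lumen.

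Some features of the samples bear on what follows. Weight loss, the weight of the colon for its length and myeloperoxidase, an enzyme of neutrophils, were used to pick the 3 rats of each day, so the level of neutrophil genes is partly set by that choice. The sources used here do not say whether high or low values were chosen on each day. Medians of the deposited values, read as log2, lay between 5.03 and 5.07 in the 6 arrays. The 3 day 14 arrays resembled each other (mean correlation of each with the other 2 of 0.987), but the day 5 arrays did not form a tight group. Day 5 replicate 1 correlated more with the day 14 arrays (0.984) than with its own group (0.980), and day 5 replicate 2 stood apart, with 0.974 to its own group and 0.951 to day 14. The difference between the 3 prime and 5 prime control probe sets of beta-actin, a reading of RNA length, was 1.35 ± 0.08 on day 5 and 1.06 ± 0.14 on day 14 (log2, SD, n = 3), with no overlap between the groups, and that of Gapdh was 0.69 ± 0.04 and 0.58 ± 0.11, with overlap. The part of RNA quality in the results was not tested. Replicates are taken as separate rats, as the design text describes them, and the number of arrays limits the precision.

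Across the 31042 probe sets tested, 55 (0.177%) differed between day 14 and day 5 at a limma adjusted p under 0.05. Of these, 49 (0.158%) were lower on day 14 and 6 (0.0193%) were higher. The falls were also larger, with a median of -2.26 and a range from -1.0 to -6.68 on the log2 scale, against a median of 1.34 and a range from 0.96 to 1.58 for the rises. At an unadjusted p under 0.05 there were 4590 probe sets (14.8%), of which 2719 were higher and 1871 lower on day 14. Counted by gene, with each of 14217 genes standing for its probe set with the highest mean, 40 (0.281%) fell and 3 (0.0211%) rose. Without a test, all 3 day 14 rats lay above all 3 day 5 rats in 2182 genes (15.3%) and below them in 1357 (9.54%). These shares are the background for the same counts in each gene list below. All 55 called probe sets had groups apart in this way, so a lack of overlap adds no support to a call.

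**Figure D1:**
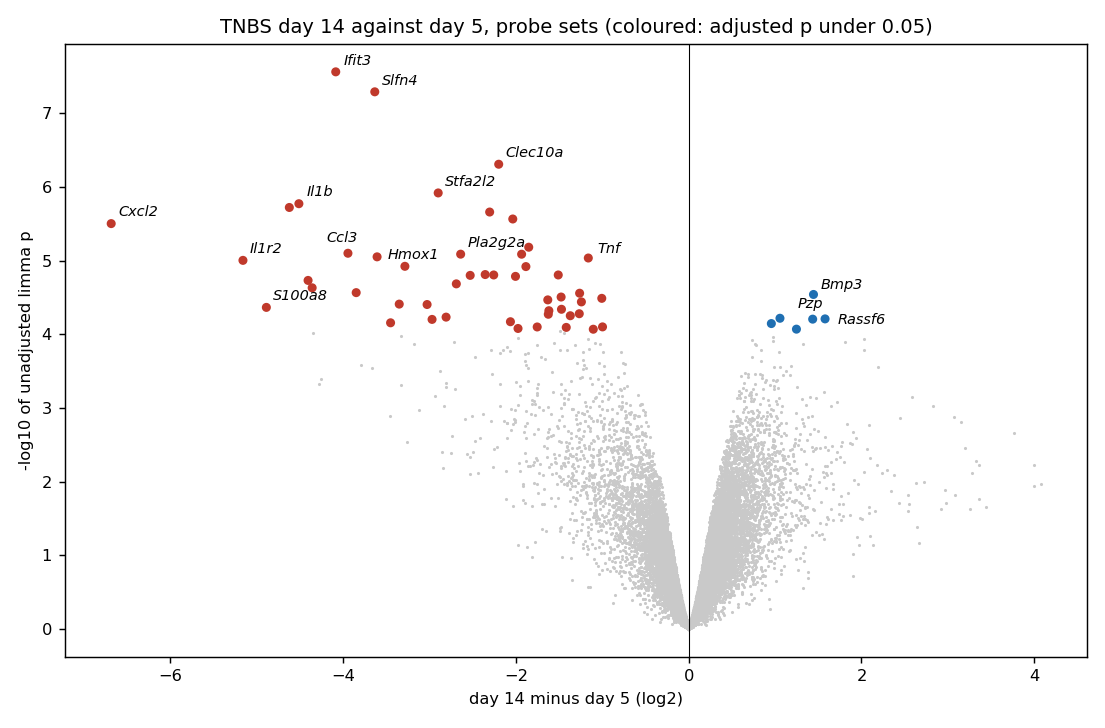
Each point is 1 of 31042 probe sets, with the day 14 minus day 5 difference in log2 on the horizontal axis and the negative log10 of the unadjusted limma p on the vertical axis. The 49 red points (lower on day 14) reach -6.68 at Cxcl2, and the 6 blue points (higher) end at 1.58 at Rassf6, while many grey points on the right have larger differences that did not pass.

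The number of calls depended on single rats. Leaving out day 5 replicate 1 gave 207 probe sets higher and 318 lower, with all 55 among them, and leaving out day 5 replicate 2 gave 4 and 94, with 47 of the 55 among them. Leaving out day 5 replicate 3 gave 0 and 12, and leaving out day 14 replicates 1, 2 or 3 gave 0 and 7, 0 and 16, and 0 and 5. Of the 55 probe sets, 4 were called in each of these 6 fits (Ifit3, Slfn4, Stfa2l2 and Clec10a) and 28 in 2 of them.

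Chemokines that draw neutrophils gave the largest fall. Cxcl2, a ligand of the neutrophil receptor Cxcr2, measured 11.14, 12.02 and 10.72 in day 5 replicates 1 to 3 and 5.60, 4.50 and 3.72 in day 14 replicates 1 to 3, the order used throughout. The lowest day 5 rat was more than 5 units above the highest day 14 rat, and the fall was 6.68 ± 0.51 on the log2 scale (SE), or 103-fold, at a limma adjusted p of 0.0108 that ran from 0.0115 to 0.0563 when single rats were left out. Cxcl1, a second ligand of that receptor, measured 9.15, 9.65 and 9.69 against 6.17, 4.46 and 4.65 and fell by 4.40 ± 0.44 (adjusted p = 0.0239, with 0.00759 to 0.128 without single rats). Ccl3, a macrophage chemokine, was at 9.58, 9.88 and 8.68 on day 5 and at 5.89, 5.40 and 5.02 on day 14, a fall of 3.94 ± 0.34 (adjusted p = 0.019, or 0.0161 to 0.0959). None of these 3 genes had overlapping groups. The list of neutrophil chemokines and chemokine receptors also holds CC chemokines such as Ccl3, Ccl4 and Ccl20, so its counts are not of neutrophil chemokines alone. Of its 21 measured genes, 5 fell (Cxcl2, Cxcl1, Ccl3, Ccl4 and Cxcl6) and none rose. In 12 all day 14 rats were below all day 5 rats, and the median difference was -1.03 where that of all 14217 genes was 0.02. The lowest and highest members were Cxcl2 and Ccl20, the latter at 0.76 without passing the test.

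Promoters of the genes with the largest changes were read as a description. These genes were chosen for their fall or rise, so a shared direction is set by the choice. Each gene was read at 1 promoter, while the shares of all promoters count every entry. RefSeq promoters of the rat assembly GRCr8 were found for 10 of the 15 genes with the largest falls and for all 3 genes that rose, and the 250 bases before each start were searched on both strands. The NF-kB motif stood in 2 of the 10, Cxcl1 and Cxcl2, and in 3.54% of all 33469 promoters. The interferon-stimulated response element, searched as GAAA, any 2 bases and GAAA again, was in 1 of the 10, Ifit3, and in 3.41% of all. An AP-1 motif, TGANTCA, was in 2 (Ifit3 and Slfn4), where 6.34% of all promoters hold it, and a loose C/EBP motif, TTNNGNAA, was in 9, where 37.2% do. The motif TATAAA was in 2, Il1b and S100a9, and in 12.9% of all promoters. Of the promoters of Bmp3, Rassf6 and Pzp, that of Pzp alone held any of these motifs, the C/EBP motif at 2 places. The 3 promoters with an NF-kB or interferon motif are shown 5′ to 3′ along the gene's strand, with that motif in capitals. They lie at chr14:17467256-17467505 on the minus strand for Cxcl2, chr14:17479322-17479571 on the minus strand for Cxcl1 and chr1:241527076-241527325 on the plus strand for Ifit3. The capitals begin 74 bases before the start in Cxcl2, 84 in Cxcl1 and 44 in Ifit3. Over both strands they hold 3 overlapping NF-kB matches in Cxcl2 and 2 in Cxcl1, and in Ifit3 the minus-strand reading of the motif.
Cxcl2: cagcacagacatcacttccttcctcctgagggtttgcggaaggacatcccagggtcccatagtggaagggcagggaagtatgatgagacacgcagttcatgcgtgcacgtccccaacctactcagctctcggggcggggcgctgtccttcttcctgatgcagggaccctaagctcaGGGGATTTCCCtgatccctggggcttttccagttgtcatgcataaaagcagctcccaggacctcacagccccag
Cxcl1: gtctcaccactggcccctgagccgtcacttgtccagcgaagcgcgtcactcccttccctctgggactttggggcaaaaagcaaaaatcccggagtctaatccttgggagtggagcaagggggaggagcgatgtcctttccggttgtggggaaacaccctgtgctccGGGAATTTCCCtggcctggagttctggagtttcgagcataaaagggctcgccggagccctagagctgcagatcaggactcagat
Ifit3: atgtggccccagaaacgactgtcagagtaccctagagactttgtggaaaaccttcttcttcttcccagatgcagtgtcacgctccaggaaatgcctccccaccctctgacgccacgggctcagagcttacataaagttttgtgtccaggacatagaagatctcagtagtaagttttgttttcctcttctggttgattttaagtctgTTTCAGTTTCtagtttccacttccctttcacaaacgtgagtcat
A match describes letters in this window and does not show that a factor binds there.

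In the interleukin-1 family the ligand and its decoy receptor fell together. Il1b, which encodes interleukin-1 beta, measured 11.24, 11.90 and 10.93 on day 5 and 7.18, 7.07 and 6.29 on day 14. It fell by 4.51 ± 0.31, or 22.8-fold (limma adjusted p = 0.00966), without overlap, and passed in 5 of the 6 fits with 1 rat left out, with 0.0594 without day 14 replicate 1. Il1r2, the decoy receptor that binds interleukin-1 without signalling and is abundant on neutrophils, was at 9.15, 10.78 and 9.13 on day 5 and 5.00, 4.50 and 4.09 on day 14, a fall of 5.16 ± 0.47 (adjusted p = 0.0192). That call was lost without day 5 replicate 3 or without any day 14 rat, where the adjusted p was between 0.0791 and 0.0984. These were the 2 called members among 23 measured genes of the interleukin-1 and interleukin-6 list, of which 15 had all day 14 rats lower and 1 higher, with a median of -0.95. Il6 itself measured 4.49, 6.94 and 5.00 against 3.79, 3.75 and 3.81, a difference of -1.69 ± 0.57 that did not pass (adjusted p = 0.245), with day 5 replicate 2 well above the other day 5 rats and no overlap. Socs3, the feedback inhibitor of interleukin-6 signalling, differed by -1.71 ± 0.24 (adjusted p = 0.066).

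Tumour necrosis factor and its NF-kB feedback genes fell by smaller amounts. Tnf was at 5.16, 5.26 and 5.26 on day 5 and 4.15, 4.09 and 3.96 on day 14, a fall of 1.16 ± 0.10 (adjusted p = 0.019) whose day 14 values lie below the arrays' median. A second Tnf probe set, with a mean of 4.51 on each day, differed by 0.00 ± 0.10. Nfkbia, which encodes the inhibitor that holds NF-kB in the cytoplasm and is itself an NF-kB target, measured 11.10, 10.96 and 10.79 against 9.25, 8.69 and 9.10 and fell by 1.93 ± 0.17 (adjusted p = 0.019). Both genes had groups that did not overlap, and both were called in 2 or 3 of the 6 fits with 1 rat left out. Among 30 measured cytokines and mediators these were the 2 that fell, 17 had all day 14 rats lower and 1 higher, and the median was -0.65. Ptgs2, the inducible cyclooxygenase, had one of the widest differences of the list, -4.28 ± 0.70, from 9.13, 10.46 and 9.06 to 6.88, 4.45 and 4.48. It did not pass (adjusted p = 0.0955), nor did Tnfrsf1b, a tumour necrosis factor receptor, at -1.98 ± 0.26 (adjusted p = 0.0562), although neither had overlapping groups. Nos2, the inducible nitric oxide synthase, had a difference of -0.28 ± 0.17 with overlap.

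Immediate early genes, which cells switch on within minutes of a stimulus, included 2 that fell among 24 measured. Junb, a subunit of AP-1, measured 10.42, 11.09 and 10.52 against 8.76, 8.77 and 8.48, a fall of 2.00 ± 0.19 (limma adjusted p = 0.0221). Zfp36, whose protein destabilises cytokine mRNAs, fell by 1.48 ± 0.16 (adjusted p = 0.0321). All day 14 rats were below all day 5 rats in 11 of the 24 and above in 1, and the median was -0.53. Ier3 differed by -1.86 ± 0.26 (adjusted p = 0.0611).

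Genes of neutrophils themselves were among the largest falls. S100a8 and S100a9 encode the 2 subunits of calprotectin, the protein measured in stool as a marker of gut inflammation. S100a8 was at 10.58, 11.94 and 10.61 on day 5 and 5.77, 7.27 and 5.43 on day 14, and fell by 4.89 ± 0.55, or 29.6-fold (adjusted p = 0.0371). S100a9 was at 12.40, 13.16 and 12.15 against 7.96, 9.17 and 7.51, a fall of 4.36 ± 0.45 (adjusted p = 0.0279). The groups were far apart for both, and both calls held in 3 of the 6 fits with 1 rat left out. Csf3r, the receptor for granulocyte colony-stimulating factor, fell by 3.85 ± 0.40 (adjusted p = 0.0306), from 6.57, 8.34 and 7.67 to 3.81, 3.51 and 3.72. Fcnb, which encodes the lectin ficolin B of neutrophil granules, fell by 2.69 ± 0.27 (adjusted p = 0.0255). Of 12 measured neutrophil markers 4 fell, 8 had all day 14 rats lower and none higher, and the median was -1.29, or between -1.58 and -0.82 with single rats left out. Over the 6 markers left when the 50% of probe sets with the lowest means were dropped, it was -3.76. That filter used means over both days, so a marker low on day 14 passed only through high day 5 values. The -3.76 is partly set by it. The mean of the 12 genes was 6.35, 7.33 and 6.52 on day 5 and 4.72, 5.09 and 4.66 on day 14. In homogenised tissue, fewer cells of a type and less RNA per cell cannot be told apart.

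Macrophage and monocyte markers were lower on day 14 in nearly the whole list. Aif1, the macrophage protein also called Iba1, measured 8.16, 8.29 and 7.81 against 5.85, 5.95 and 5.55 and fell by 2.30 ± 0.17 (limma adjusted p = 0.00966), a call that held in 4 of the 6 fits with 1 rat left out. Clec7a, the receptor dectin-1 for fungal glucans, fell by 2.81 ± 0.33 (adjusted p = 0.0422), and Fcgr3a, a receptor for the Fc part of IgG, by 1.98 ± 0.25 (adjusted p = 0.0481). These 3 were the called members of 19. A further count without a test shows 15 of the 19 with all day 14 rats below all day 5 rats, and all 19 differences were negative, from -0.15 for Trem2 to -2.81 for Clec7a, with a median of -1.32. Igsf6 and Lilrb4, a pair of myeloid surface receptors outside the list, fell by 3.45 ± 0.42 (adjusted p = 0.045) and 3.35 ± 0.37 (adjusted p = 0.0349). The mean of the macrophage list ran from 7.59 to 8.40 on day 5 and from 6.11 to 6.75 on day 14, so it moved with the cytokine and chemokine lists above, and its part in their differences was not tested.

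Ifit3 and Slfn4 had the smallest adjusted p of the comparison. Ifit3, an interferon-induced antiviral gene, was at 7.95, 8.26 and 7.75 on day 5 and 4.08, 3.82 and 3.81 on day 14, a fall of 4.08 ± 0.16, or 17.0-fold (adjusted p = 0.000788, and at most 0.0131 without any 1 rat). Slfn4, a schlafen family gene of myeloid cells, was at 11.02, 11.06 and 10.66 against 7.42, 7.34 and 7.08 and fell by 3.63 ± 0.15 (adjusted p = 0.000788, and at most 0.0131). Both genes had tight groups on each day. For Slfn4 another probe set, with means of 3.50 and 3.59, differed by 0.10. Of the 27 measured interferon response genes only Ifit3 was called, 9 had all day 14 rats lower and none higher, and the median was -0.55. Gbp2, a guanylate-binding protein, differed by -1.95 ± 0.32 (adjusted p = 0.0981), whereas Mx1, at 0.18, Rsad2, at 0.17, and Ifih1, at 0.06, had differences above 0. Among 24 antigen presentation genes none was called, 2 had all day 14 rats lower, and the median was -0.21.

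**Figure D2:**
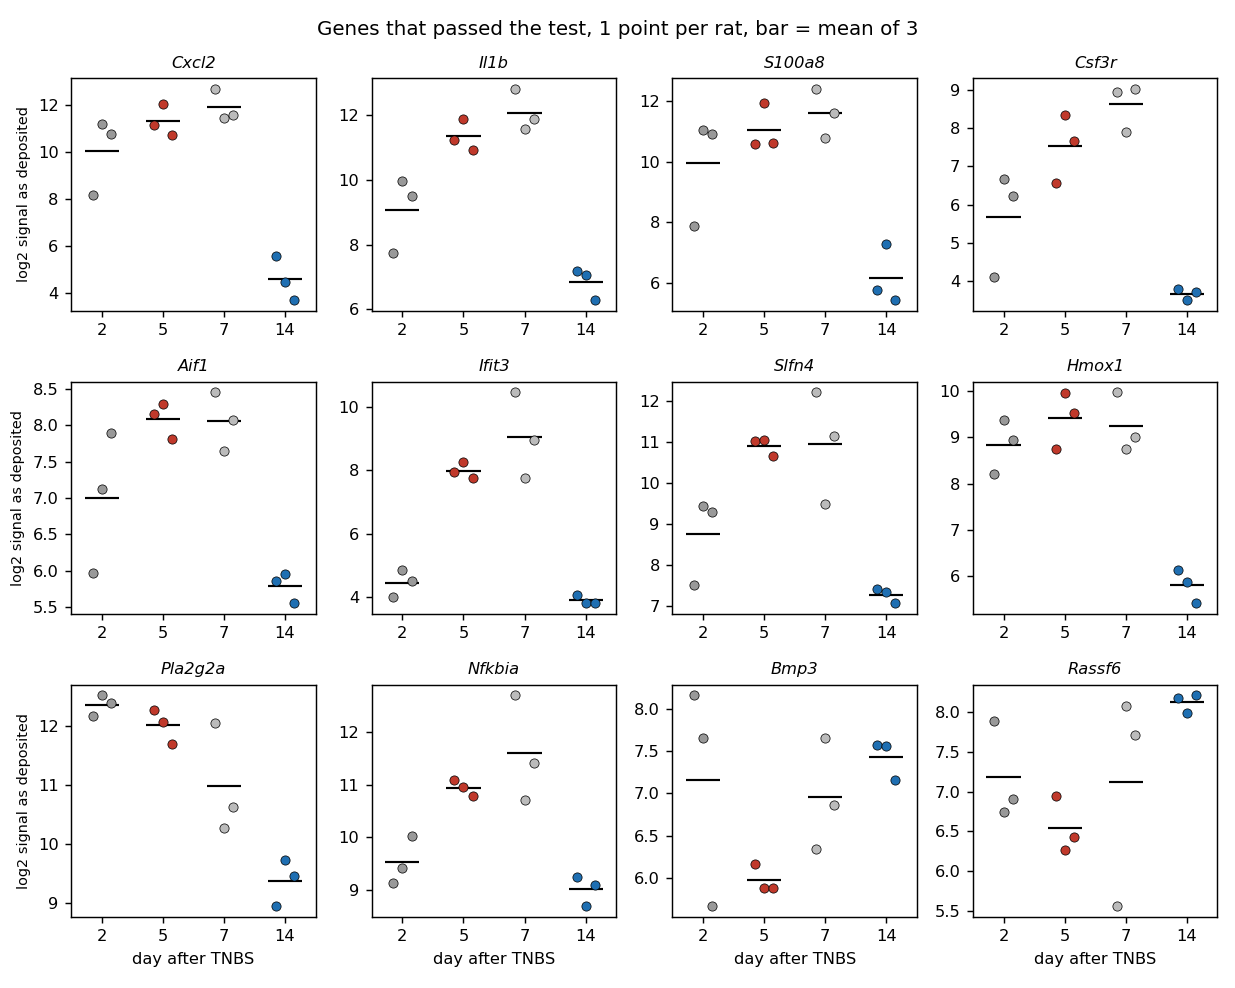
Deposited log2 values of 12 genes that passed the test, 1 point per rat on days 2, 5, 7 and 14 after TNBS, with a bar at the mean of 3 rats. Day 5 (red) and day 14 (blue) rats do not overlap in any panel, as in every called probe set. In Cxcl2 the day 14 rats lie between 3.72 and 5.60 while the day 5 rats lie between 10.72 and 12.02.

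Secreted defence proteins of the mucosa fell in part. Pla2g2a, a secreted phospholipase that attacks bacterial membranes, measured 12.28, 12.07 and 11.70 on day 5 and 8.95, 9.73 and 9.46 on day 14, a fall of 2.64 ± 0.23 (limma adjusted p = 0.019). Slpi, an inhibitor of neutrophil elastase, fell by 2.97 ± 0.35 (adjusted p = 0.0422), and Lbp, which presents lipopolysaccharide to its receptor, by 2.26 ± 0.22 (adjusted p = 0.0221). The 3 were the called members of 24, with 9 that had all day 14 rats lower, 3 with all higher and a median of -0.32. Lcn2, the iron-scavenging lipocalin, had a difference of -4.25 ± 0.68, from 8.67, 11.59 and 9.73 to 5.32, 6.25 and 5.66, and did not pass (adjusted p = 0.0917) except when day 5 replicate 1 (0.0182) or day 5 replicate 2 (0.031) was left out. The antimicrobial lectin Reg3g differed the other way, by 2.24 ± 0.61 (adjusted p = 0.184), with 4.57, 6.10 and 3.93 against 7.37, 7.78 and 6.18 and no overlap. Its relative Reg3b differed by 0.50 ± 0.90, with overlap.

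Hmox1, the haem-degrading enzyme induced by oxidative stress, measured 8.75, 9.96 and 9.53 against 6.13, 5.87 and 5.42, without overlap, and fell by 3.61 ± 0.32, or 12.2-fold (adjusted p = 0.019). It was the only called gene of the 27 measured in the oxidative stress and iron list, in which 7 genes had all day 14 rats higher and 7 all lower, with a median of -0.16. Sod2, the mitochondrial superoxide dismutase, differed by -1.40 ± 0.25 (adjusted p = 0.108). In the list of endoplasmic reticulum folding genes, where none of 26 was called, the stress gene Ddit3 differed by -2.28 ± 0.32 (adjusted p = 0.0611), and in that of hypoxia and glycolysis genes, where none of 26 was called, the lactate exporter Slc16a3 differed by -1.67 ± 0.24 (adjusted p = 0.0689).

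No complement or coagulation gene was called among 28, but all 28 differences were negative and 17 had all day 14 rats below all day 5 rats, with a median of -0.96. C3, the central complement component, was at 8.90, 10.43 and 8.66 against 5.18, 6.77 and 6.03, a difference of -3.33 ± 0.55 (adjusted p = 0.0955). Plaur, the urokinase receptor, differed by -1.40 ± 0.19 (adjusted p = 0.0611), and Serping1, the C1 inhibitor, by -1.22 ± 0.18 (adjusted p = 0.077). Without day 5 replicate 1, 5 genes of the list were called lower, and without day 5 replicate 2, 2 were.

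Matrix genes had mostly negative differences and 1 call. Adam8, a membrane metalloproteinase of leukocytes, fell by 3.03 ± 0.34 (limma adjusted p = 0.0349), from 7.13, 8.49 and 7.66 to 5.03, 4.72 and 4.45, and was the only called gene among 30 proteinases and inhibitors (13 with all day 14 rats lower, none higher, median -0.45). Timp1, an inhibitor of matrix metalloproteinases, differed by -2.58 ± 0.51 (adjusted p = 0.127). Among 35 collagens and structural matrix genes none was called, 18 had all day 14 rats lower and 2 all higher, and the median was -0.74. Col6a1 and Col6a2, chains of the microfibrillar collagen VI, differed by -0.87 ± 0.15 and -0.98 ± 0.17 (adjusted p = 0.105 for each), while the fibrillar Col1a1 and Col3a1 differed by -1.51 ± 0.49 and -0.49 ± 0.20 with groups that overlapped. Aspn, a small proteoglycan, had 6.45, 6.51 and 6.65 against 9.03, 7.98 and 7.76, the widest positive difference of the list at 1.72 ± 0.31 (adjusted p = 0.112). Of 28 matricellular and collagen-processing genes 13 had all day 14 rats lower, and the proteoglycan Vcan had the widest difference, -2.85 ± 0.68 (adjusted p = 0.155).

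Endothelial markers were negative in all 18 measured genes, and 11 had all day 14 rats below all day 5 rats, with a median of -1.01 and no call. Plvap, a protein of the fenestrae of vessels, was at 8.53, 9.42 and 9.31 against 8.06, 8.07 and 7.92, a difference of -1.07 ± 0.23 (adjusted p = 0.143). Without day 5 replicate 1, 9 endothelial genes and 11 genes of the collagen and structural matrix list were called lower. In each of the other 5 fits with 1 rat left out the count was 0 for both lists. Fibroblast markers had a median of -0.33 with 6 of 17 lower in all day 14 rats and 1 higher, and their list mean overlapped between the days.

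**Figure D3:**
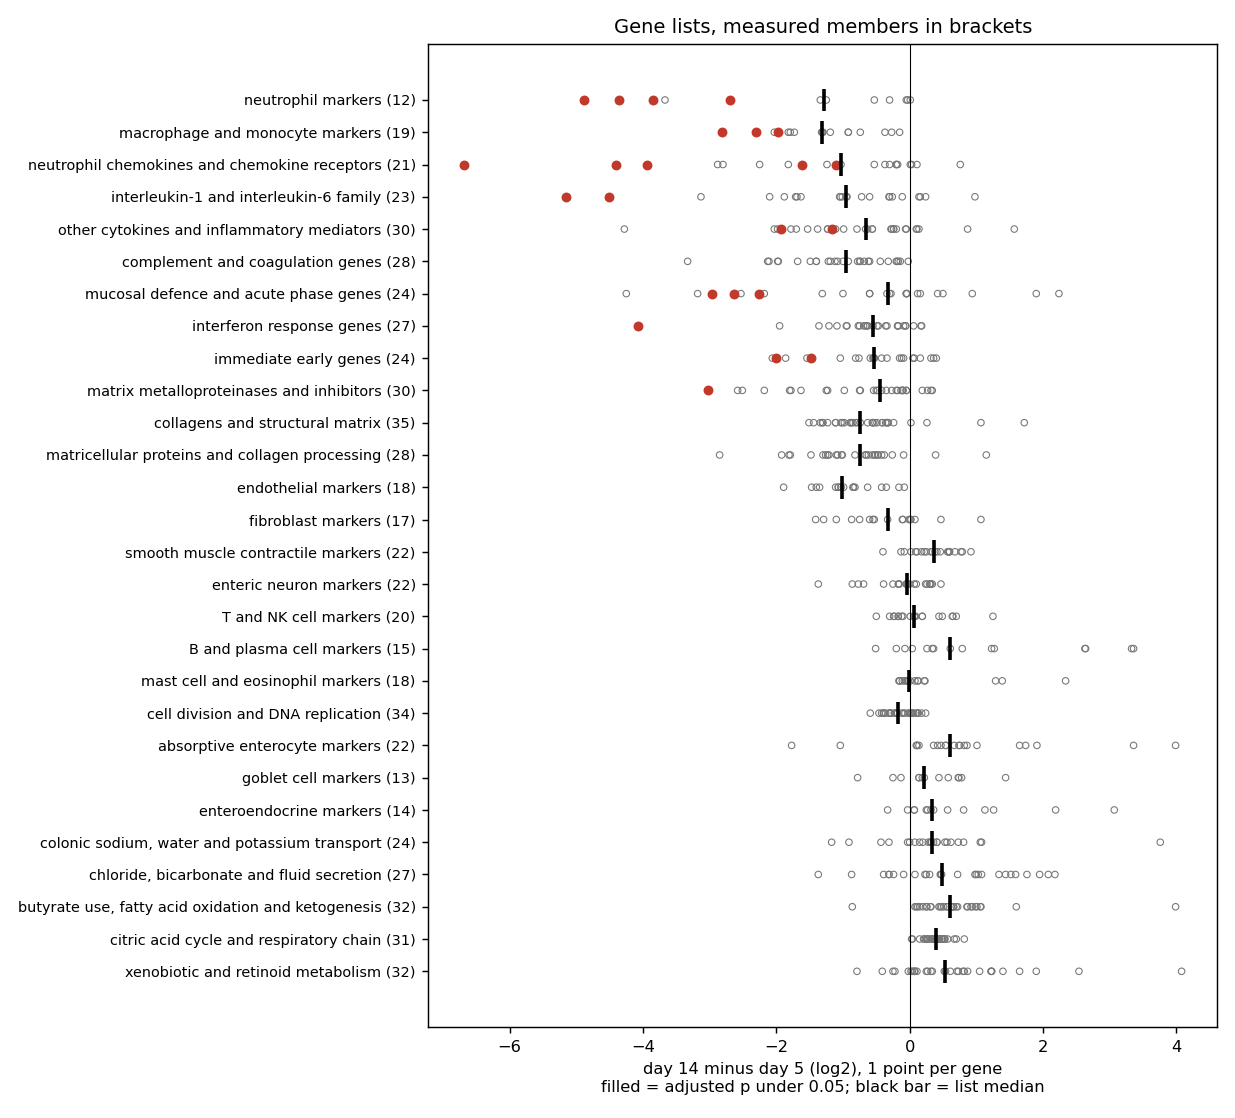
Day 14 minus day 5 differences (log2) of the measured genes in 28 lists, 1 point per gene, with filled points for genes at an adjusted p under 0.05 and a black bar at each list's median. The neutrophil, macrophage, cytokine, complement, matrix and vessel lists have medians down to -1.32. The epithelial, transport and energy lists have medians up to 0.61 with no filled point. T and NK cell, B and plasma cell, and mast cell and eosinophil lists have medians of 0.07, 0.61 and -0.01.

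The genes that rose were few. Bmp3, a bone morphogenetic protein family ligand, was at 6.17, 5.89 and 5.89 on day 5 and 7.57, 7.56 and 7.16 on day 14, without overlap, and rose by 1.44 ± 0.15, or 2.72-fold (limma adjusted p = 0.0307). Rassf6, which encodes a Ras-association domain protein, was at 6.95, 6.26 and 6.43 against 8.17, 7.99 and 8.21 and rose by 1.58 ± 0.19 (adjusted p = 0.0422). Pzp, of the alpha-2-macroglobulin family of protease inhibitors, was at 4.68, 4.14 and 4.16 against 5.66, 5.91 and 5.72 and rose by 1.43 ± 0.17 (adjusted p = 0.0422). Calls for Bmp3 and Rassf6 held only without day 5 replicate 1 or 2, and that for Pzp only without day 5 replicate 1, when 1 rat was left out. Bmp3 was the 1 called gene of 29 in the TGF-beta, activin and BMP list, in which 6 genes had all day 14 rats lower. The remaining 3 probe sets that rose carry no single gene symbol.

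Epithelial genes had higher day 14 means without passing the test. In absorptive enterocyte markers 10 of 22 had all day 14 rats above all day 5 rats and 1 all below, with a median of 0.61, where the background shares were 15.3% and 9.54%. Fabp1, the fatty acid binding protein of enterocytes, was at 9.40, 5.23 and 4.49 on day 5 and 9.69, 10.90 and 10.51 on day 14, a difference of 3.99 ± 1.18 (limma adjusted p = 0.206). Day 5 replicate 1 was nearly as high as the lowest day 14 rat, and without it the difference was 5.51 (adjusted p = 0.0078). Mep1a, a brush border protease subunit, differed by 1.65 ± 0.42 (adjusted p = 0.168), and Anpep, a brush border aminopeptidase, differed by -1.77 ± 0.44 (adjusted p = 0.16), the 1 marker with all day 14 rats lower. General epithelial markers moved less: 5 of 17 had all day 14 rats higher, the median was 0.25, and the list mean overlapped, at 10.40, 9.57 and 10.33 against 10.37, 10.28 and 10.50. The keratin Krt8 differed by 0.20 ± 0.20, and the intestinal transcription factor Cdx2 by 1.34 ± 0.32 (adjusted p = 0.154), without overlap.

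Goblet cell markers had a median of 0.22, with 4 of 13 higher in all day 14 rats. Zg16, a lectin of mucus granules, was at 10.66, 10.84 and 9.89 against 12.36, 11.85 and 11.51 (1.44 ± 0.30, adjusted p = 0.135), and Muc2, the main mucin of the colon, differed by 0.78 ± 0.22 (adjusted p = 0.195). Tff3, the goblet cell trefoil peptide, differed by 0.14 ± 0.24 with overlap. Enteroendocrine markers had 3 of 14 higher in all day 14 rats and none lower, with a median of 0.34. Chga, the granule protein chromogranin A, was at 6.45, 5.48 and 5.40 against 7.93, 8.43 and 7.55, and Chgb, chromogranin B, was at 7.50, 4.99 and 5.90 against 9.26, 9.67 and 8.66. Their differences were 2.19 ± 0.33 (adjusted p = 0.0778) and 3.07 ± 0.60 (adjusted p = 0.125), and Chga was called only without day 5 replicate 1 (0.0154) among the fits with 1 rat left out.

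Ion transport genes included wide differences of this kind, none of which passed. Slc9a3, the apical sodium-hydrogen exchanger of absorptive cells, was at 8.77, 5.64 and 5.70 on day 5 and 10.91, 10.46 and 10.03 on day 14, a difference of 3.76 ± 0.80 (limma adjusted p = 0.139). The groups did not overlap although day 5 replicate 1 was about 3 units above the other 2, and without it the difference was 4.79 (adjusted p = 0.00306). Slc12a2, the basolateral sodium-potassium-chloride cotransporter that feeds chloride secretion, was at 10.19, 10.20 and 9.87 against 11.17, 10.96 and 11.06 and came nearest to the threshold, at 0.98 ± 0.13 (adjusted p = 0.0571). Cftr, the apical chloride channel, differed by 1.52 ± 0.35 (adjusted p = 0.154), and Car1, a carbonic anhydrase of colon surface cells, by 1.76 ± 0.67 (adjusted p = 0.287). In the chloride, bicarbonate and fluid secretion list 15 of 27 had all day 14 rats higher and 1, the calcium-activated chloride channel regulator Clca4 at -1.37 ± 0.30, all lower, with a median of 0.48 and 8 genes called higher without day 5 replicate 1. In the sodium, water and potassium list 6 of 24 were higher in all day 14 rats and none lower, with a median of 0.33. The water channel Aqp8 was at 8.34, 5.57 and 8.53 against 9.01, 6.75 and 7.93, and Scnn1b, the beta chain of the sodium channel ENaC, at 5.54, 6.12 and 5.99 against 5.42, 5.20 and 5.75, both with overlap.

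Genes for burning fuel had small positive differences in most of the list. In butyrate use, fatty acid oxidation and ketogenesis, the chief energy supply of colon epithelium, 31 of 32 differences were positive, 20 genes had all day 14 rats higher and 1 all lower, and the median was 0.60. Acadm, the medium-chain acyl-CoA dehydrogenase, was at 9.51, 8.63 and 9.23 against 10.41, 10.04 and 9.96 (1.01 ± 0.24, adjusted p = 0.155). In the citric acid cycle and respiratory chain all 31 differences were positive, 23 genes had all day 14 rats higher, and the median was 0.40. Suclg2, a subunit of succinyl-CoA ligase, had the largest of them at 0.82 ± 0.20 (adjusted p = 0.156). The mean of that list was 10.32, 9.90 and 10.16 on day 5 and 10.53, 10.52 and 10.52 on day 14. Xenobiotic and retinoid metabolism had 11 of 32 genes higher in all day 14 rats and 2 lower, with a median of 0.53, among them the cytochrome Cyp4b1 at 1.90 ± 0.40 (adjusted p = 0.138). With day 5 replicate 1 left out, 4 butyrate genes, 1 respiratory gene and 5 xenobiotic genes were called higher, and without each of the other rats none was. The epithelial marker lists moved in the same direction, and their part in these differences was not tested.

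**Figure D4:**
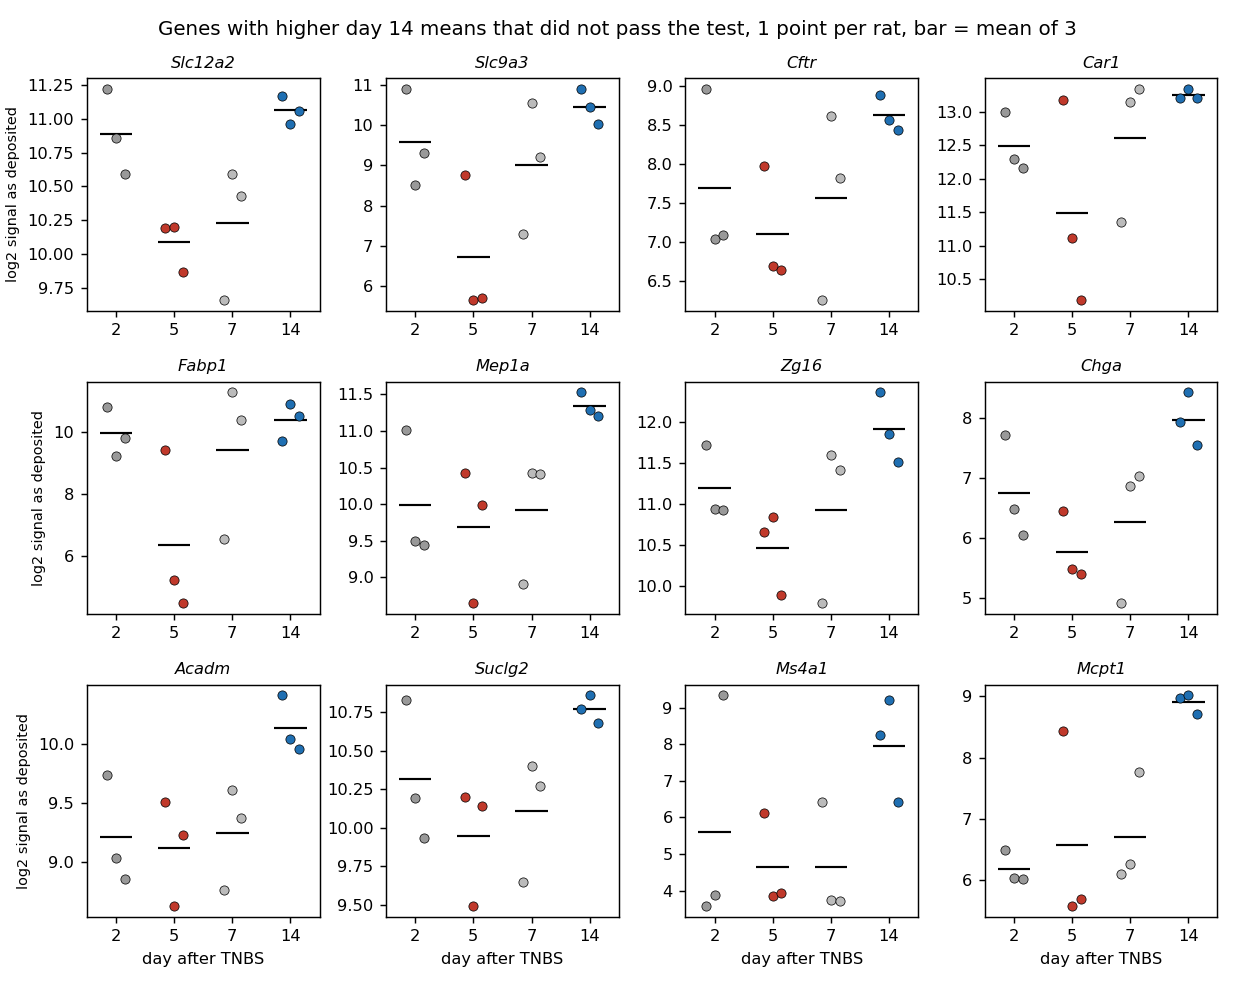
Deposited log2 values of 12 epithelial, B cell and mast cell genes that did not pass the test, 1 point per rat on days 2, 5, 7 and 14 after TNBS, with a bar at the mean of 3 rats. The genes were chosen for higher day 14 means. That day 14 rats (blue) lie above day 5 rats (red) in each panel is thus largely set by the choice. Other members of the same lists overlap, such as Tff3, or go the other way, such as Anpep. In several panels, such as Slc9a3 at 8.77 and Mcpt1 at 8.44, the first day 5 rat lies far above the other 2.

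Lymphocyte genes varied between rats of the same day. Ms4a1, which encodes the B cell antigen CD20, was at 6.11, 3.85 and 3.93 on day 5 and 8.26, 9.21 and 6.41 on day 14, a difference of 3.33 ± 0.84 (limma adjusted p = 0.164). Cr2, a complement receptor of B cells and follicular dendritic cells, differed by 3.36 ± 0.86 (adjusted p = 0.169). Neither gene had overlapping groups, although the lowest day 14 rat came close to the highest day 5 rat for both. Of 15 B and plasma cell markers 3 had all day 14 rats higher and 1 all lower, and the median was 0.61, or 0.23 to 1.15 with single rats left out. The list mean overlapped, at 6.30, 5.68 and 5.29 against 6.97, 7.53 and 5.99. T and NK cell markers had a median of 0.07 with 1 of 20 genes apart, downwards. Mcpt1, a mast cell protease whose family members are close in sequence, was at 8.44, 5.58 and 5.69 against 8.98, 9.02 and 8.72 (2.34 ± 0.71, adjusted p = 0.215), and the list of 18 mast cell and eosinophil markers had a median of -0.01. Dropping the 50% of probe sets with the lowest means left 2 of the 18, with a median of 1.81. The filter used means over both days, so a marker low on day 5 passed only through high day 14 values.

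Markers of muscle, nerves and dividing cells had no called gene. Smooth muscle contractile genes had a median of 0.36, with 5 of 22 higher in all day 14 rats and 1 lower, and Myh11, the smooth muscle myosin heavy chain, was at 12.14, 11.09 and 12.32 against 12.65, 12.18 and 12.45, with overlap. Enteric neuron markers had a median of -0.04 over 22 genes, and the neuropeptide gene Vip differed by -1.37 ± 0.52 with overlap (adjusted p = 0.284). In enteric glia markers the 2 days overlapped in all 10 genes, with a median of 0.00. Cell division genes had a median of -0.18, with 4 of 34 lower in all day 14 rats, and Mki67, a marker of cycling cells, differed by -0.31 ± 0.22 (adjusted p = 0.578). Markers of squamous epithelium, skeletal muscle and red blood cells had medians of -0.08, 0.03 and -0.07, those of adipocytes and mesothelium -0.20 and -0.21, those of crypt progenitors and interstitial cells of Cajal 0.44 and 0.09. Tight and adherens junction genes had a median of 0.36, growth factor and Wnt genes -0.17, hypoxia genes -0.17, endoplasmic reticulum genes -0.11, lymphoid chemokines 0.07, cholesterol genes 0.02 and clock genes 0.01, and TGF-beta pathway genes -0.18.

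**Figure D5:**
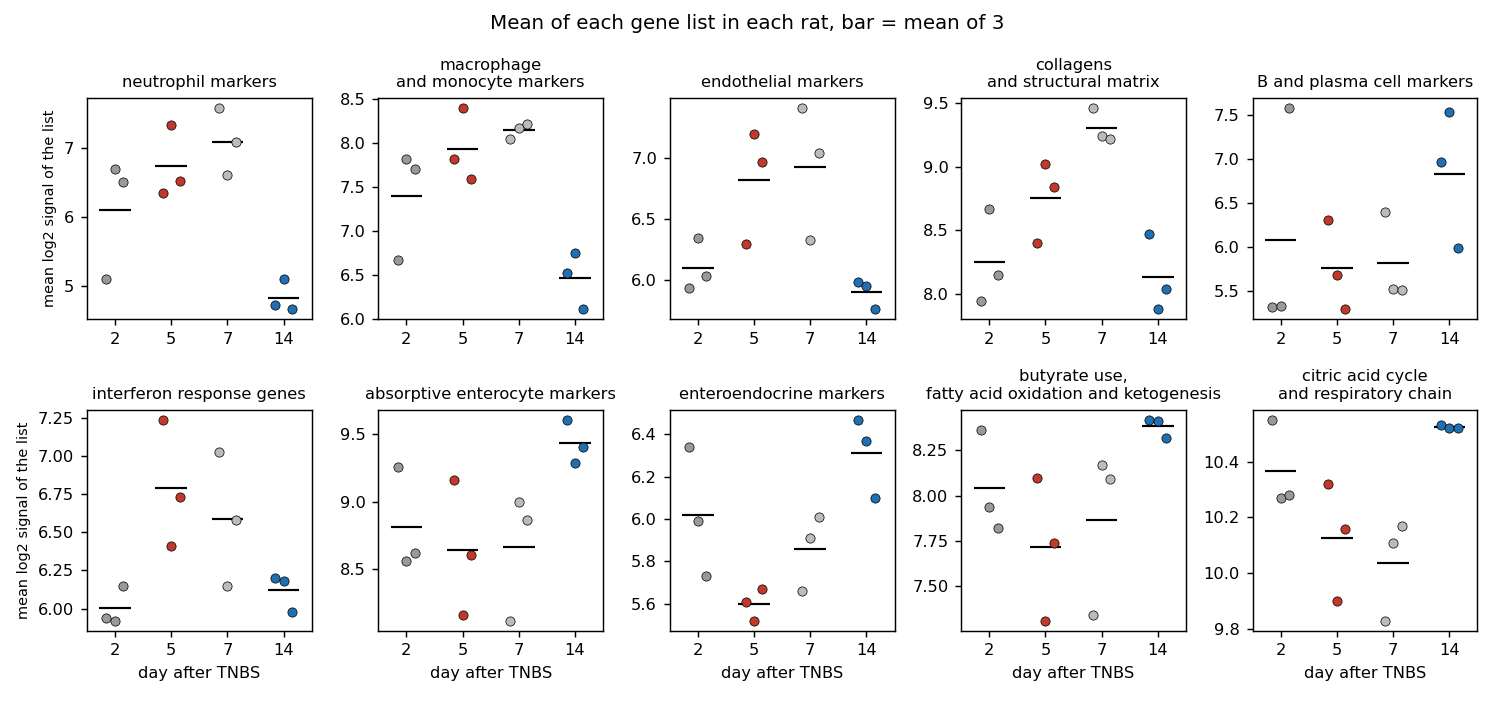
Mean deposited log2 value of each of 10 gene lists in each rat, 1 point per rat on days 2, 5, 7 and 14 after TNBS, with a bar at the mean of 3 rats. The neutrophil mean is 6.35 to 7.33 on day 5 (red) and 4.66 to 5.09 on day 14 (blue), and the citric acid cycle mean is 9.90 to 10.32 and 10.52 to 10.53, while the B cell mean overlaps between these days.

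Another 15 genes fell and are named here after their values were seen. Clec10a, a macrophage lectin, measured 7.61, 7.66 and 7.54 on day 5 and 5.19, 5.58 and 5.45 on day 14, a fall of 2.20 ± 0.13 (limma adjusted p = 0.00505). Stfa2l2, of the stefin family of cysteine protease inhibitors, fell by 2.90 (adjusted p = 0.00935). Ripk3, the kinase of necroptosis, measured 9.56, 9.50 and 9.59 against 7.58, 8.03 and 7.48 and fell by 1.85 (adjusted p = 0.019). Nfkbiz, a nuclear regulator of NF-kB targets, fell by 1.88 (adjusted p = 0.0207), Tlr1, a receptor for bacterial lipopeptides, by 1.51 (adjusted p = 0.0221), and Cd33, a sialic acid-binding myeloid receptor, by 1.47 (adjusted p = 0.0383). The other 9 were Ccl4, Cxcl6, Pilra, Tfec, Pstpip1, Fes, Tifa, Eif4e3 and Hist4h4, a histone gene whose copies are near-identical in sequence, with falls between 1.10 and 2.53. Cpne8 and Igf1 fell by probe sets other than the one that stands for the gene, and for the growth factor Igf1 the latter differed by -2.01 ± 0.40 (adjusted p = 0.127). Second probe sets of Aif1 and Adam8, with day 5 means of 4.64 and 3.88, differed by -0.22 and -0.25 without passing. The last 7 probe sets that fell carry no single symbol.

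The other days place these calls in time as a description, with no test. Of the 49 probe sets that fell between day 5 and day 14, the day 7 mean was at or above the day 5 mean in 40 and between the means of days 5 and 14 in 9, and it was nearer to day 5 in all 49. All 3 day 7 rats were above all 3 day 14 rats in 48 of them. The 49 were chosen through low values in these day 14 rats, so that count is partly set by the choice. Its share over all probe sets was not computed. Day 7 replicate 1 was the highest day 7 rat in 40 of the 49. Day 2 means lay between those of day 5 and day 14 in 44. Ifit3 was low on day 2, at 4.00, 4.84 and 4.52, beside 10.46, 7.75 and 8.94 on day 7, whereas Pla2g2a was at 12.18, 12.53 and 12.40 on day 2. Of the 6 probe sets that rose, the day 7 mean was between the 2 days in all 6, and day 7 replicate 1 was the lowest day 7 rat in each.

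Control rats, which received saline, were set beside these values only after quantile normalization of all 18 arrays, since the deposited values of the control arrays have another distribution, and the label entry for RNA extraction also differs, so that treatment and array handling cannot be told apart there. On that scale all 3 day 5 rats were above all 6 controls in each of the 49 probe sets that later fell. The share over all 31042 probe sets was 11.8%, but these 49 were chosen through high values in the same day 5 rats. That count is thus largely set by the choice. All 3 day 14 rats were still above the 6 controls in 19 of the 49 (38.8%, against 8.47% of all). The choice of the 49 used these day 14 values and the high day 5 values. The share of all probe sets is therefore not a like background for them. Another 28 of the 49 overlapped the controls and 2 lay below them. Of all 31042 probe sets, 25426 overlapped the controls on day 14 and 2986 lay below them. Cxcl2 ranged from 3.28 to 3.63 in controls and from 3.55 to 5.28 on day 14, and S100a8 from 3.57 to 3.92 and from 5.18 to 6.99, above the controls in all 3 rats. Slfn4 was also above them, at 6.81 to 7.06 against 4.84 to 6.11, whereas Hmox1 overlapped, at 5.18 to 5.75 against 5.07 to 6.11. Of the 6 probe sets that rose, 5 overlapped the controls on day 14 and 1 lay below them. Most probe sets of the array overlapped too, so this is not read as a return to control levels.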

How the data were processed

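The deposited table holds log2-like signals of 31099 probe sets on 18 arrays. Per the labels, RNA from Trizol and affinity columns was labelled and hybridised as Affymetrix prescribes, and affyPLM in Bioconductor normalized the deposited values. Their log base, centring and background method are not stated in the sources, so they were read as log2. No detection calls were used, so whether a low probe set was above background is unknown, and 20 of the 49 probe sets that fell had day 14 means below the arrays' medians.

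After 57 array controls were left out, 31042 probe sets were tested with limma 3.58.1 (lmFit and eBayes, two-sided, R 4.3.3) on the 3 day 5 and 3 day 14 arrays only. P-values were adjusted by Benjamini-Hochberg over all of them, and calls were made at 0.05. They set each difference against the spread between these selected rats, which limma moderates over all probe sets. Standard errors (SE) come from this fit. Platform annotation gives 1 gene symbol to 20826 probe sets, several to 436 and none to 9780, and 20758 of the first have a gene ID found in RefSeq. Probe sets can cross-hybridise to close relatives of a gene. Of 14217 genes, 4525 have more than 1 probe set.

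The comparison, the 47 gene lists (21 of cell types, 26 of pathways), the panel and the rules were chosen with earlier results of these data known, and list counts and medians are descriptions. Named genes include up to 15 called genes with the largest change in each direction, which the rule required to have groups that do not overlap. The others are the 3 members of each list with the smallest adjusted p, a fixed panel, and the member with the highest mean of lists without a call. Of the panel, 3 genes have no probe set of their own. Deviations of same-numbered rats of the 2 days correlated at 0.04, 0.26 and 0.20, the first of them near 0. This does not settle whether numbers pair the rats, and they were not used as pairs in the main fit. Other normalizations, filters, fits and each rat left out were tried. The procedure was also run on simulated data with independent noise and large known changes put in. That run does not bear on the dependence on single rats or on differences smaller than those put in.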

Additional observations from a re-analysis of the deposited data

How the results depend on the processing

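Against 6 probe sets higher and 49 lower, quantile normalization gave 1 and 31 over the 6 arrays and 1 and 23 over all 18. Dropping the 50% or 25% of probe sets with the lowest means gave 12 and 75 or 12 and 79, and trend and robust empirical Bayes 14 and 91. A fit of the 12 TNBS arrays gave 1 and 8 (7 of the 55 shared), a fit of all 18 arrays 84 and 201 (42 shared), and array weights 37 and 128 (55 shared). An adjusted p under 0.01 left 0 and 7. With single rats left out the counts ran from 0 to 207 higher and from 5 to 318 lower. Replicate number as a replicate block gave 23 and 96 (47 shared). In the check of the processing notes, day 14 replicates 2 and 3 deviated most like their own numbers (0.26 and 0.20). Day 14 replicate 1 deviated most like day 5 replicate 3 (0.14). Seen from day 5, each rat deviated most like its own number (0.04, 0.26 and 0.20). The check does not settle whether the numbers pair the rats.

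Listed genes, 1 higher and 24 lower, became 12 lower with quantile normalization of 18 arrays, 0 and 5 with the 12 TNBS arrays, 4 and 58 with all 18, 2 and 50 with array weights, and 0 and 3 at an adjusted p under 0.01. The higher count was 3 without the lowest 50%, 2 without the lowest 25%, 3 with trend and robust fitting, 6 with the replicate block and 2 with 1 probe set per gene, and with single rats left out it ran from 0 to 31 and the lower count from 2 to 88. Median centring and a log2 difference of at least 1 left the counts within 1.5 times (5 and 48 probe sets for each).

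The 28 named genes among those called kept their direction under all settings run, apart from the other Slfn4 probe set at 0.10. Since their groups do not overlap, only the normalizations and other probe sets could have reversed that direction. Of the 28 genes, 19 and 14 were still called with quantile normalization of 6 and 18 arrays. The count was 5 with the 12 TNBS arrays, 4 at an adjusted p under 0.01 and 3 to 28 with single rats left out. Of 162 uncalled named genes, 16 changed sign and 49 were called under at least 1 setting or probe set. Medians of 12 of the 47 lists changed sign under a setting, none of them among the 25 lists with a median of size 0.3 or more. Dropping the lowest 50% of probe sets moved the medians of 11 lists by more than the SD of their means between rats of a day, with fewer members left in each. That filter used means over both days, so members low on 1 day passed only through the other. These medians are partly set by it. With 3 arrays a group, uncalled genes are not shown to be unchanged, and low probe sets have no measured distance to background.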
